A study of Homo sapiens with 6 samples.

Results

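Keratins, vimentin and the keratin-associated protein KRTAP2-3 were followed in MDA-MB-231/RR, a radioresistant form of the MDA-MB-231 line, which consists of human triple-negative breast carcinoma cells. The 9 genes are KRT7, KRT8, KRT10, KRT18, KRT19, KRT80, KRT81, KRTAP2-3 and VIM, 9 of 46427 genes in the gene table. They were chosen by name with earlier results of the same comparison known, so their own differences, and whether a fit across all genes called them, are given as a description and support nothing. All 9 were among the 16557 genes that had enough counts to be tested.

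RNA was sequenced from 6 libraries, 3 from control cells and 3 from cells that received both oTR (ortho-topolin riboside, a plant cytokinin nucleoside) and melatonin, the pineal hormone. All 6 come from the one radioresistant line. Neither compound alone, nor the parental line, is compared here, and the labels used here state no dose or duration. The labels do not say whether libraries of a group are separate cultures. A p-value therefore reflects the spread among these libraries, which may be technical. Estimated counts summed to between 50569611 and 72309015 per library.

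Keratins build the intermediate filaments of epithelial cells as obligate pairs of an acidic type I and a basic type II chain. KRT8 and KRT18 are the primary pair of simple epithelia, joined by KRT7 and KRT19 in ducts, and vimentin is the type III filament protein of mesenchymal cells. MDA-MB-231 cells are known for carrying abundant vimentin beside simple-epithelial keratins. KRT81 and the keratin-associated proteins belong to the hair shaft, where the latter form the matrix between keratin filaments.

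Across all tested genes, edgeR's quasi-likelihood test with Benjamini-Hochberg adjustment called 33.7% at an adjusted p of 0.05, 16.6% higher and 17.1% lower in the co-treated cells. The call is therefore a common one here. The CPM values (counts scaled to library size with normalization factors) of the 2 groups did not overlap in 47.4% of tested genes. The split of calls depended on scaling: 2743 genes were higher and 2835 lower with relative log expression factors, 3816 and 2065 with library size alone, 3635 and 2172 when library sizes omitted the 20 most abundant genes, and 4516 and 1339 on the log2(TPM + 1) scale. TPM is the authors' level scaled by transcript length and library. The median log2 fold change of all genes was 0.0024 on the count scale and 0.12 on the log2(TPM + 0.1) scale, and differences on the TPM scale are to be read against that shift.

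Of the 9 genes, 5 were called, KRT7 and KRT81 higher and KRT18, KRT80 and KRTAP2-3 lower. The CPM of the groups did not overlap in 6, the same 5 and VIM, which was higher. KRT8, KRT10 and KRT19 overlapped. Under other settings the list of calls differed: KRT18 was called in 13 of 19 alternatives, and VIM and KRT19, not called here, in 9 and 1 of 19. The genes were chosen with this contrast known, so these counts are not read against the background shares.

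**Figure D1:**
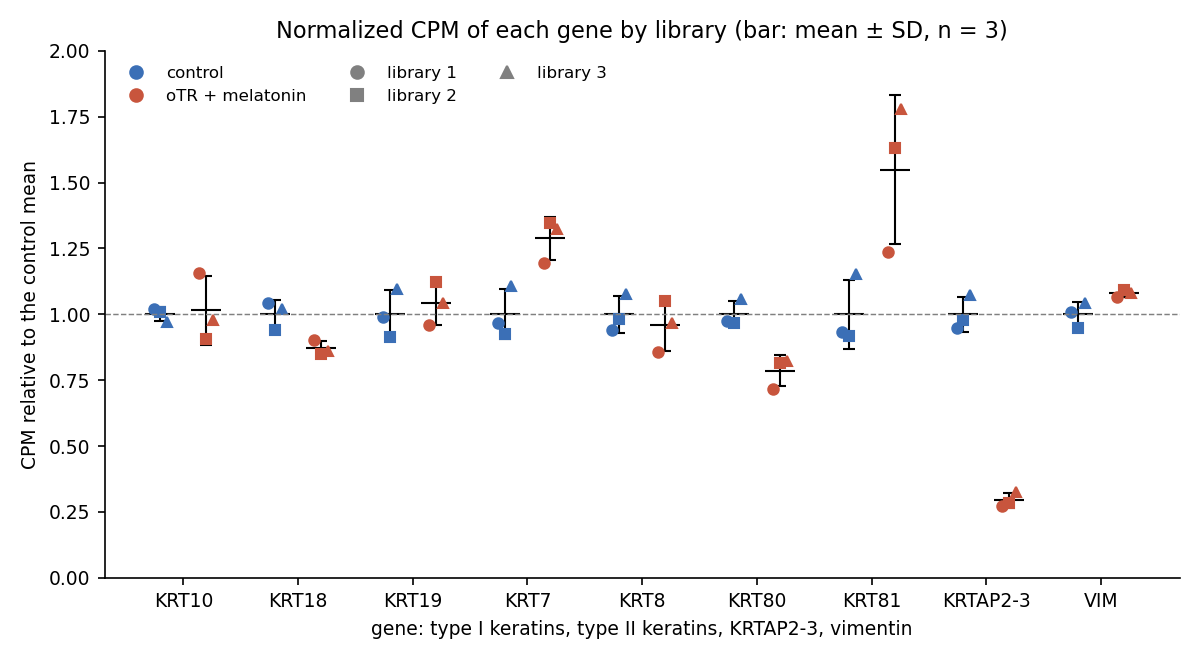
Normalized CPM of the 9 genes in each library, divided by the gene's mean over the 3 control libraries (y axis), for type I keratins, type II keratins, KRTAP2-3 and vimentin (x axis). Symbols mark the libraries, and horizontal marks with bars give the mean ± SD (n = 3). KRTAP2-3 lies lowest, with all 3 co-treated libraries far below the controls, while KRT7 and KRT81 lie above their controls and KRT8, KRT10 and KRT19 overlap them.

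KRTAP2-3 stood apart from the other 8 genes in size of difference. It encodes a small cysteine-rich protein of the hair keratin matrix, from chromosome 17, bases 41059240 to 41060114 (GRCh38), on the minus strand. Its CPM was 11.7, 12.1 and 13.3 in the control libraries and 3.40, 3.50 and 4.03 in the co-treated libraries. Every co-treated library lay below every control, and the fitted log2 fold change was -1.76 ± 0.095 (SE), 3.38-fold lower. Less RNA per cell and fewer cells with the transcript cannot be told apart in bulk RNA. Over all the settings tried, the log2 fold change stayed between -1.84 and -1.54.

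KRTAP2-3 has 3 near neighbours, KRTAP2-1, KRTAP2-2 and KRTAP2-4, on the same strand between bases 41046541 and 41065879 of chromosome 17. Their sequences are alike enough to share reads. Of all 50-base windows in the GENCODE transcript of KRTAP2-3, 39.7% also occur in another gene, and 39.5% occur in KRTAP2-4. The 250 bases before each RefSeq start (GRCh38.p14, minus strand, 5′ to 3′) are printed because all 4 genes had lower CPM in the co-treated libraries. Capitals mark the longest run that all 4 hold, 18 bases around a TATA box.
KRTAP2-1, chr17:41047317-41047566: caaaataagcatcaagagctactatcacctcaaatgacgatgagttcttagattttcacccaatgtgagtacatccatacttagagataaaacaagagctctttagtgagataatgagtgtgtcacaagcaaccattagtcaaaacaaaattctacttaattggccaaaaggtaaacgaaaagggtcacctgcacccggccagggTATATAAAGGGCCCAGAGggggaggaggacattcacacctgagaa
KRTAP2-2, chr17:41055231-41055480: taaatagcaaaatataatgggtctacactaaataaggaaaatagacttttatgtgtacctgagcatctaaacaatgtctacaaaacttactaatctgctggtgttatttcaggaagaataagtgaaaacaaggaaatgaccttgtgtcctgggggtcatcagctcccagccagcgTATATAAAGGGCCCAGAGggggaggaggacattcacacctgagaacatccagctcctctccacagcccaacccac
KRTAP2-3, chr17:41060115-41060364: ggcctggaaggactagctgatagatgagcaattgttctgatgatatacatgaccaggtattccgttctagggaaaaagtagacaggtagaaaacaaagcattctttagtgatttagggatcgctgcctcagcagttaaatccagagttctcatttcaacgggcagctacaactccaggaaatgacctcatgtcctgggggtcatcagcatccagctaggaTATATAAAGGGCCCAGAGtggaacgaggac
KRTAP2-4, chr17:41065880-41066129: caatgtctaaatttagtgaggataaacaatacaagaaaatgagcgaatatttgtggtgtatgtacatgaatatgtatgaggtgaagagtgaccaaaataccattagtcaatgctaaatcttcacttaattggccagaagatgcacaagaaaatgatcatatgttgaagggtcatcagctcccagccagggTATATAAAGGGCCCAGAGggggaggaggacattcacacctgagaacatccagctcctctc
The capital run ends 12 bases before the annotated start of KRTAP2-3, 27 before that of KRTAP2-1, 42 before that of KRTAP2-4 and 57 before that of KRTAP2-2. Of 35116 RefSeq upstream windows of the same length, 4 hold the run on the gene's strand, those of these 4 genes.

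Identity over the run and the 30 bases before it, counted without gaps over 48 bases, was highest between KRTAP2-2 and KRTAP2-3 (89.6%) and lowest between KRTAP2-1 and KRTAP2-3 (72.9%). These percentages include the 18 bases of the run, which are identical by choice. The motif TATAAA, searched on both strands, lies within the run, occurs in each of the 4 windows, and is found in 10.7% of all upstream windows. CCAAT occurs 2 times upstream of KRTAP2-1 and 1 time upstream of KRTAP2-4, against 32.0% of all windows with at least 1, and its letters are not in the KRTAP2-2 and KRTAP2-3 windows. The GC box GGGCGG was found in 42.6% of all windows, the motif TGANTCA in 6.57%, the core GCGTG in 32.2% and the E-box CACGTG in 6.34%, and none of them has a match in any of the 4.

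All 4 KRTAP2 genes were lower in the co-treated libraries. KRTAP2-4 had 2.31, 1.56 and 1.65 CPM in controls and 0.275, 0.484 and 0.722 in co-treated libraries, a difference of -1.85 ± 0.30 in log2 (SE, edgeR adjusted p = 0.00090). KRTAP2-1 went from a mean of 0.779 ± 0.093 CPM to 0.247 ± 0.069 (SD, n = 3), with a log2 fold change of -1.62 (edgeR adjusted p = 0.0018). KRTAP2-2 went from 0.729 ± 0.150 to 0.223 ± 0.045 CPM (SD, n = 3), with -1.68 (edgeR adjusted p = 0.0019). Since the copies share part of their sequence and the counts are estimates, these 3 calls are not treated as independent of KRTAP2-3.

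The sum over the 4 copies does not depend on how reads were shared among them. It was 15.6, 14.9 and 16.7 CPM in control and 4.06, 4.41 and 5.35 CPM in co-treated libraries, a log2 ratio of means of -1.77. KRTAP2-3 made up 78.7% of the sum in controls and 79.1% in co-treated cells. Beyond these copies, 81 of the other 92 keratin-associated protein genes in the table had 0 counts in every library, and none of the 92 had more than 10 counts in a library.

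**Figure D2:**
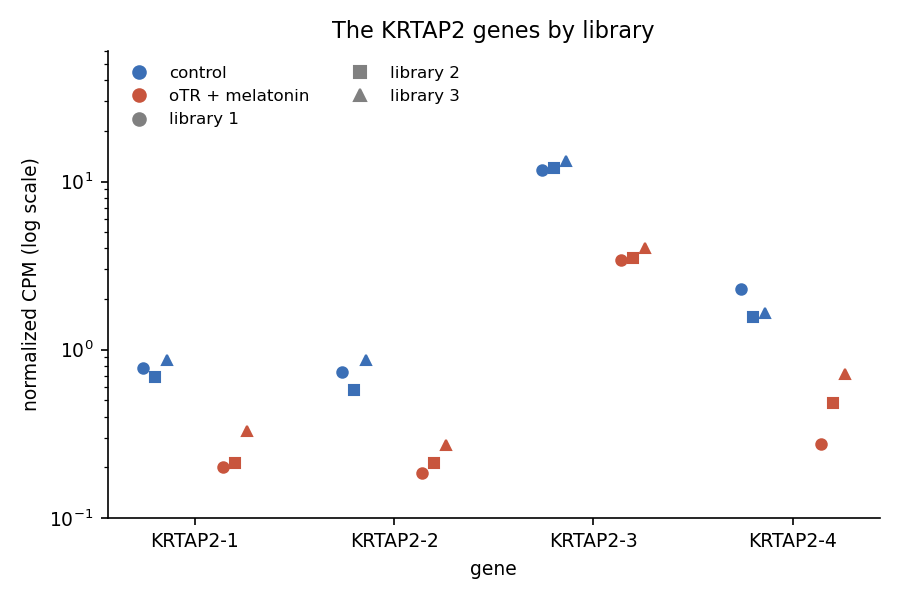
Normalized CPM (y axis, log scale) of the 4 KRTAP2 genes (x axis) in each of the 3 control and 3 co-treated libraries, 1 symbol per library. In each gene the co-treated libraries lie below all controls, and KRTAP2-3 is the most abundant copy in both groups, with 11.7 to 13.3 CPM in controls.

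The simple-epithelial keratins were the most abundant keratins of the line, and KRT7 was the one that differed most. KRT7, a type II keratin of ductal epithelium, lies on chromosome 12 between bases 52233243 and 52252667. It had 388, 373 and 446 CPM in control and 481, 541 and 532 CPM in co-treated libraries. Each co-treated library was above each control, with a log2 fold change of 0.36 ± 0.069 (SE), 1.29-fold higher. On the TPM scale the mean went from 514 ± 40.0 to 725 ± 35.8 (SD, n = 3), a difference of 0.50 in log2.

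KRT8, the type II partner of KRT18, spans bases 52897191 to 52949860 of chromosome 12 on the minus strand. Its CPM was 510, 534 and 586 in control and 466, 570 and 525 in co-treated libraries. The groups overlapped, and the log2 fold change was -0.062 ± 0.072 (SE). Its sign depended on the setting, with a range from -0.13 to 0.061, positive on the TPM scales, with length and GC trends removed, and without co-treated library 1 (0.011).

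KRT18, the type I partner, lies at bases 52948871 to 52952906 and overlaps the span of KRT8 by 990 bases. It had 388, 349 and 380 CPM in control and 336, 316 and 321 CPM in co-treated libraries. No co-treated library reached the lowest control, and the log2 fold change was -0.20 ± 0.050 (SE). The size did not hold on other scales, since it was -0.067 on the log2(TPM + 1) scale, where the groups overlapped, -0.11 with a length trend removed and -0.054 with length and GC trends removed. KRT18 was not called in those fits, nor without control library 1 (-0.17).

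KRT19, a small type I keratin that lacks most of the tail domain, spans bases 41523617 to 41528308 of chromosome 17. Its CPM was 96.1, 88.7 and 106 in control and 93.2, 109 and 101 in co-treated libraries, overlapping, with a log2 fold change of 0.059 ± 0.072 (SE). On the TPM scale, where the mean went from 148 ± 10.7 to 169 ± 11.7 (SD, n = 3), the groups did not overlap and the difference was 0.19. Its value was between -0.0044 and 0.19 over all settings.

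KRT8 and KRT18 have many processed pseudogenes. In their GENCODE transcripts 22.1% and 21.7% of 50-base windows occur in 36 and 40 other genes. For KRT7 and KRT19 these shares were 0.997% and 1.79%. Among 135 keratin pseudogenes with a row, 7 were tested, with a median log2 fold change of -0.37. With a minimum count of 50, 3 were left, with a median of 0.091. Of the 7, 1 was called, KRT8P12 at -0.47 (edgeR adjusted p = 0.030). That call was lost in 9 of 19 alternatives, with adjusted p from 0.051 to 0.14, among them the fits without control library 2 or 3 (-0.50 and -0.37) and without co-treated library 1 or 2 (-0.46 and -0.40).

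The 3 remaining keratins are less abundant. KRT80, a type II epithelial keratin placed near desmosomes, lies at bases 52168996 to 52192014 of chromosome 12. It had 94.4, 93.6 and 102 CPM in control and 69.5, 79.0 and 79.7 CPM in co-treated libraries. All co-treated values were below all controls, with a log2 fold change of -0.35 ± 0.061 (SE), 1.27-fold lower. On the log2(TPM + 1) scale the difference was -0.21.

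KRT81, a type II hair keratin that is also known from breast carcinoma cells, lies at bases 52285913 to 52291534 of chromosome 12. It had 14.5, 14.3 and 17.9 CPM in control and 19.2, 25.4 and 27.7 CPM in co-treated libraries. The groups did not overlap, and the log2 fold change was 0.63 ± 0.13 (SE), 1.55-fold higher. Co-treated library 1 lay closest to the controls. KRT81 lies inside the span of KRT86, another hair keratin, with which it shares 38.4% of its 50-base windows. KRT86 itself had between 101 and 200 counts per library, with a log2 fold change of -0.050 (edgeR adjusted p = 0.84).

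KRT10, the type I keratin of differentiated epidermis, lies at bases 40818117 to 40822614 of chromosome 17. Its CPM was 17.6, 17.4 and 16.7 in control and 19.9, 15.6 and 16.8 in co-treated libraries. Co-treated libraries held both the highest and the lowest value, and the log2 fold change was 0.021 ± 0.086 (SE). Over all settings it ran from -0.083 to 0.15, so it has no settled sign.

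Vimentin was the most abundant of the 9. VIM lies at bases 17228241 to 17237593 of chromosome 10, on the plus strand. It had 2077, 1957 and 2148 CPM in control and 2195, 2248 and 2228 CPM in co-treated libraries. The co-treated values were all above the controls, with the lowest of them close to the highest control, and the log2 fold change was 0.11 ± 0.041 (SE), 1.08-fold. With library size alone it was 0.17, and in TPM it was 0.27, where the mean went from 2115 ± 96.7 to 2544 ± 157 (SD, n = 3). TPM also depends on the split of counts between the VIM transcripts, of 2154 and 1873 bases. In co-treated libraries VIM TPM was 2694, 2557 and 2380, and the shorter transcript held 78.8%, 38.5% and 5.97% of counts. The part of this split in the TPM difference was not tested.

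Per transcript length, the order of the control means was VIM, KRT8 (632 ± 30.6 TPM, SD, n = 3), KRT18 (557 ± 29.3), KRT7 (514 ± 40.0), KRT19, KRT80 (52.7 ± 1.55), KRTAP2-3 (29.9 ± 1.37), KRT81 (17.1 ± 1.88) and KRT10 (17.0 ± 0.776). VIM ranked 65 among the 16557 tested genes and KRT8 ranked 187. KRT18 and KRT7 overlapped in their control values, as did KRT81 and KRT10. In the co-treated cells KRT7 (725 ± 35.8 TPM) was above KRT8 (660 ± 60.8) in mean, and their ranges overlapped. KRT81 (28.9 ± 4.79 TPM) stood above KRTAP2-3 (9.62 ± 0.741) in co-treated cells, the reverse of their order in controls.

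**Figure D3:**
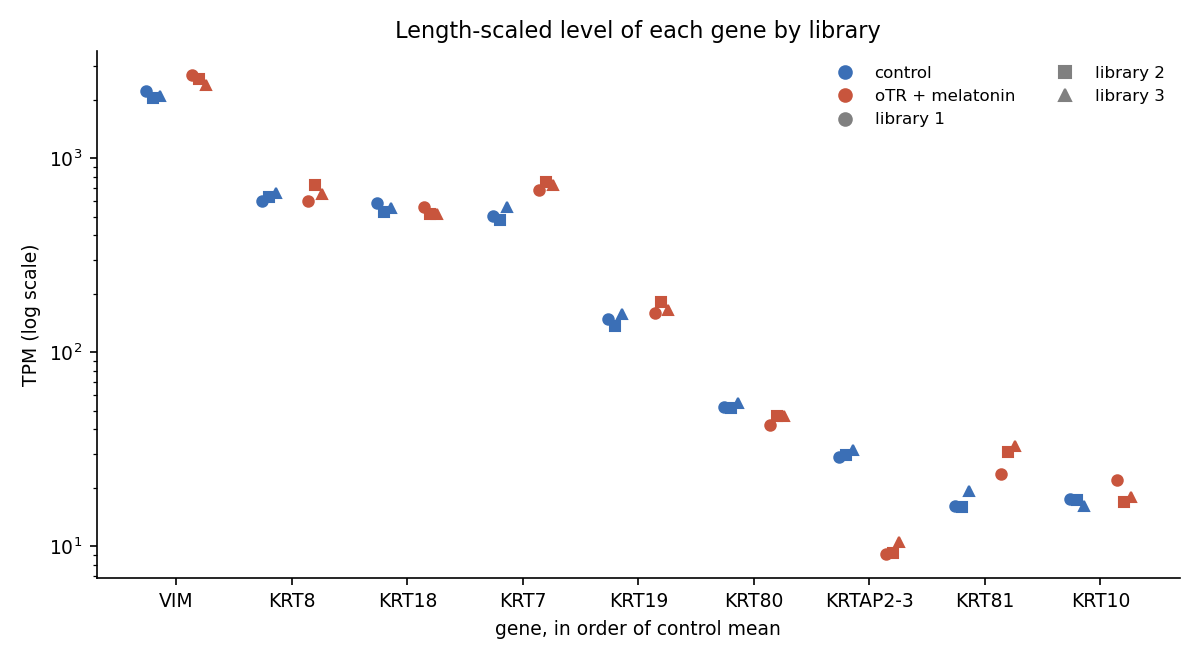
TPM of the 9 genes (y axis, log scale) in each library, with genes on the x axis in the order of their control mean. VIM is highest in every library, KRT8, KRT18 and KRT7 lie close together, and KRTAP2-3 changes places with KRT81 and KRT10 between the groups.

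The 7 keratins carried 99.5% of the TPM of all 55 keratin genes in the table. The summed TPM of the 3 type I members was 753, 683 and 729 in control and 742, 715 and 701 in co-treated libraries, and the groups overlapped. For the 4 type II members the sums were 1172, 1178 and 1296 against 1355, 1558 and 1466, with no overlap. Both sums are in TPM and are to be read against the upward shift of that scale. In CPM, KRT18 was lower in all co-treated libraries (log2 fold change -0.20), KRT7 was higher (0.36), and KRT8 (-0.062) and KRT19 (0.059) overlapped. A type II rise beside steady type I keratin is thus a reading of the TPM scale alone. The ratio of type I to type II keratin was 0.643, 0.580 and 0.563 in control and 0.547, 0.459 and 0.478 in co-treated libraries, so all co-treated values were lower. KRT7's share of the type II members' TPM went from 42.2% ± 1.19 to 49.7% ± 1.06 (SD, n = 3).

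Within the type II keratins, the ratio of KRT7 to KRT8 was 0.831, 0.766 and 0.841 in control and 1.14, 1.05 and 1.12 in co-treated libraries. The ratio of the primary pair, KRT8 to KRT18, was 1.03, 1.19 and 1.20 against 1.07, 1.40 and 1.27, and the groups overlapped. Keratin to vimentin, the 7 keratins summed over VIM, was 0.866, 0.914 and 0.972 against 0.778, 0.889 and 0.910, also overlapping. These ratios do not change with a library's scaling factor. In TPM the ratio to vimentin does depend on how VIM counts were split between transcripts of unlike length.

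The transcript table lists 21 transcripts of the 9 genes, and 12 of them, from 6 genes, had a mean share of their gene between 5% and 95%. In 5 of the 12 the shares of the groups did not overlap. In the whole table this held for 13.4% of 27729 transcripts with such a share and a mean count of 50 or more. The genes were chosen with this contrast known, so the 5 are not read against that percentage. These 5 come from 3 genes, and shares within a gene sum to a whole, so they are not separate observations.

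In KRT80, variant 1 held 58.8%, 59.2% and 59.5% of the gene's counts in control and 53.3%, 52.7% and 50.1% in co-treated libraries. Variant 2 took 39.7%, 39.7% and 39.0% and then 45.2%, 46.4% and 48.7%. The shift, 7.28 points toward variant 2, lay outside the spread within either group. Both variants run over the same span. The counts of variant 1 went from between 3082 and 4253 to between 2019 and 2934, those of variant 2 from between 2082 and 2790 to between 1711 and 2854.

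KRT10 variant 2 held 9.74%, 10.5% and 11.6% in control and 7.46%, 6.07% and 5.02% in co-treated libraries, at counts of 49 to 135 per library. KRT8 variant 4, a non-coding form that starts at the far end of the gene beside KRT18, held 8.86%, 10.3% and 11.4% in control and 13.6%, 11.5% and 13.2% in co-treated libraries, a difference of 2.58 points. The smallest co-treated value lay just above the largest control. KRT8 variant 2, the main form, took 87.2%, 81.4% and 76.0% against 78.6%, 78.9% and 76.7%, and overlapped. KRT7, with 1 main transcript at 83.5%, 84.2% and 87.3% against 84.4%, 85.3% and 84.8%, overlapped too.

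Vimentin showed the widest spread of shares. The reference transcript, which starts at base 17228241, held 49.4%, 69.1% and 93.2% of VIM counts in control and 21.2%, 61.5% and 94.0% in co-treated libraries. Variant X1, which starts at base 17229273, held the rest. The SD was 21.9 points in control and 36.5 points in co-treated libraries, larger than the difference between the means of 11.7 points, and both libraries numbered 3 had over 93% on the reference transcript. The gene total in CPM, which is not divided by transcript length, was steady all the same, with an SD of log2 CPM within groups of 0.049. KRT18 variant 2, which starts further upstream than variant 1, also varied within controls, at 8.14%, 18.4% and 22.0%, with 12.1%, 16.1% and 14.3% in co-treated libraries.

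**Figure D4:**
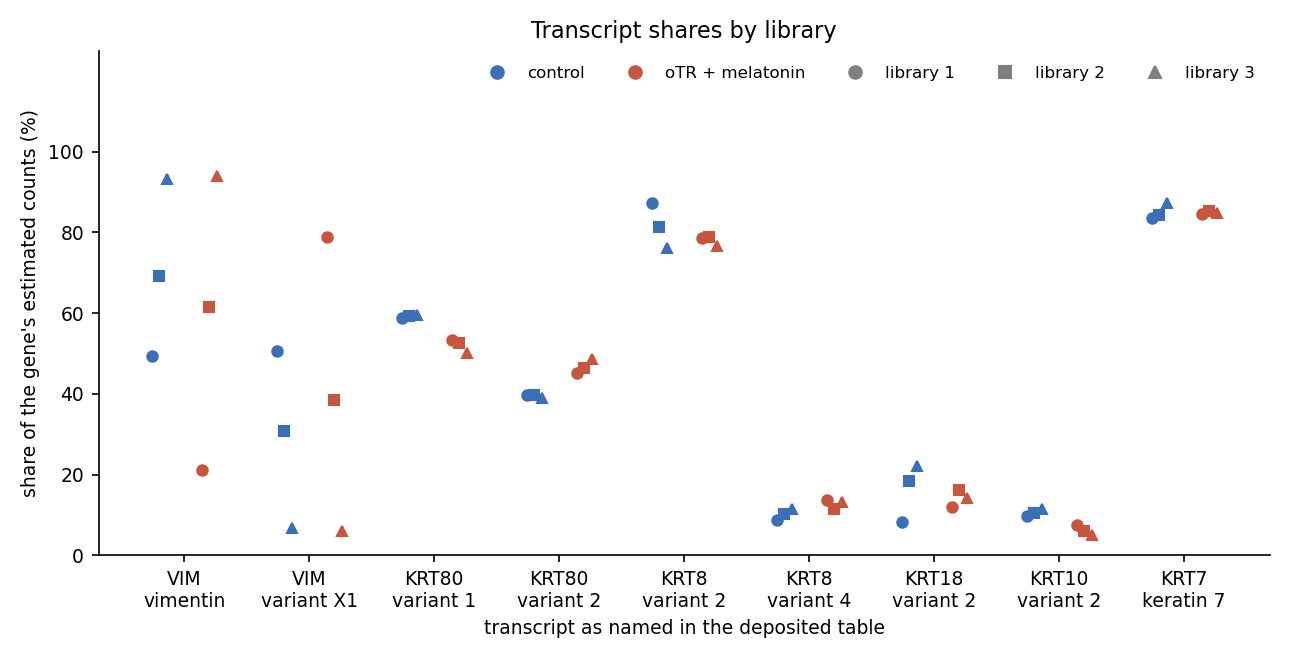
Share of the gene's estimated counts (y axis, percent) held by 9 transcripts of VIM, KRT80, KRT8, KRT18, KRT10 and KRT7 (x axis) in each library. The 2 KRT80 variants are tight within groups and apart between them, while the 2 VIM transcripts spread from 5.97% to 94.0% across libraries.

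The upstream sequence of the reference VIM transcript is printed because that start's share varied so widely. These are the 250 bases before the RefSeq start (GRCh38.p14, plus strand, 5′ to 3′), with capitals marking the single match to GGGCGG, a motif found on either strand in 42.6% of all upstream windows.
VIM, chr10:17227991-17228240: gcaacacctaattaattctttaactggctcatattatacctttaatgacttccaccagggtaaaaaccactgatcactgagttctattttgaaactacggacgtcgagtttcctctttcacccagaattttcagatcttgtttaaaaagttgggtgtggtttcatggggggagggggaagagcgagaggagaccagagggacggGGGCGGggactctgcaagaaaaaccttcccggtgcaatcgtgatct
No TATAAA or CCAAT is in this window. RefSeq upstream windows matched 4 of the 9 genes, KRT8, KRT10, KRTAP2-3 and VIM. KRT7, KRT18, KRT19, KRT80 and KRT81 had none in the table. The KRT8 window belongs to the start of variant 1 (base 52926469), which held between 1.15% and 7.05% of KRT8 counts, and the KRT10 window holds 1 TATAAA and 1 CCAAT.

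Several of the 9 overlap other genes, and the sources used here do not say whether counting used the strand, so reads in the overlaps cannot be told apart. VIM overlaps VIM-AS1, an antisense RNA, by 1745 bases. VIM-AS1 had 176, 274 and 240 counts in control and 120, 119 and 194 in co-treated libraries, with a log2 fold change of -0.55 (edgeR adjusted p = 0.0077), opposite in sign to VIM. The call was lost on the unfiltered log2(TPM + 1) scale (-0.35, adjusted p = 0.078). KRT7 overlaps KRT7-AS (24 to 42 counts per library), the pseudogene KRT87P and METTL7AP1, of which KRT87P had a log2 fold change of 0.46 (edgeR adjusted p = 0.095). METTL7AP1 had 0 counts in library 1 of both groups and 65 to 90 in the other 4. KRT10 overlaps TMEM99 by 3470 bases (-0.18, edgeR adjusted p = 0.076). KRT8 and KRT18 overlap each other by 990 bases, at the far end of KRT8 variants 3 and 4. KRT8 also overlaps MIR9898, which had at most 4 counts in a library and was not tested.

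Among other tested genes at a mean of 5 CPM or more, the closest to each member in log2 CPM over the 6 libraries was named by Pearson's r. Members, uncharacterised loci, open reading frame symbols, LINC genes, small RNAs and numbered antisense RNAs were left out of this search. These 6 points share their libraries and scaling, and the highest r is picked from many, so its size is no test. KRTAP2-3 was nearest to METTL3 (r = 0.999), an RNA methyltransferase whose own log2 fold change was -0.46. KRT7 was nearest to MVP (0.994), KRT81 to FURIN (0.997), and KRT80 to RIC8A (0.9996), with log2 fold changes of 0.26, 0.21 and -0.30. KRT8 was nearest to FLOT1 (0.996), KRT18 to MAPKBP1 (0.995), KRT10 to PDCD4 (0.990), VIM to RIPK1 (0.995) and KRT19 to LMNA (0.985), the nuclear lamin. Between members, KRT7 and KRT81 had r = 0.971, KRT7 and VIM 0.948, KRT80 and KRTAP2-3 0.944, and KRT8 and KRT18 0.084.

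Genes of these filaments and of related systems were read from 14 lists, of which 140 genes were tested. The lists also hold tubulins, actin genes, epithelial and mesenchymal markers, keratin pseudogenes and other keratin-associated protein genes. Of the 140, 20 were called higher and 37 lower, or 40.7%, where the share of all tested genes was 33.7%. The lists were chosen with earlier results of these data known. Neither their share of calls nor their median is therefore read against that of all genes. The 37 also include 3 keratin-associated protein genes, whose calls are not treated as independent of the keratin-associated member. The split turned on the log2(TPM + 1) scale, to 38 higher and 18 lower, so the direction of a list's majority depends on the scale, and the median of the 140 was -0.033 against 0.0024 for all genes. Of the 57 called genes, 26 kept their call in every alternative tried. Among the 34 that were picked for the size of their change within a list, it was 23.

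Of 48 other keratin genes in the table, 33 had 0 counts in every library and 6 were tested. edgeR called 0 of the 6, DESeq2 0, voom 0 and limma on TPM 0, and 1, KRT17, had an unadjusted p under 0.05 in edgeR. KRT17, a stress and basal keratin, had 0.378, 0.323 and 0.358 CPM in control and 0.184, 0.077 and 0.259 in co-treated libraries (edgeR adjusted p = 0.095). Other intermediate filament genes had 2 higher and 3 lower of 12 tested, with a median of -0.13, and 4 higher and 1 lower on the log2(TPM + 1) scale. LMNB2, a nuclear lamin, fell from 576 ± 27.5 to 450 ± 26.3 CPM (SD, n = 3), a log2 fold change of -0.36 (edgeR adjusted p = 0.00065). SYNM, which copolymerises with vimentin, rose by 0.26 (edgeR adjusted p = 0.0069), a call lost with a length trend removed (0.16, adjusted p = 0.074). IFFO2 fell by 0.21 (edgeR adjusted p = 0.0042), a call lost on TPM scales (-0.074, adjusted p = 0.24).

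Desmosomes anchor keratin to the cell border. Of 8 desmosome genes tested, 3 rose and 3 fell, and the median was -0.072. On the log2(TPM + 1) scale 3 rose and 2 fell, with a median of 0.065. JUP, plakoglobin, had 37.4, 36.6 and 36.9 CPM in control and 61.7, 69.5 and 62.0 in co-treated libraries, a rise of 0.80 ± 0.056 in log2 (SE, edgeR adjusted p = 7.7e-06). All co-treated libraries stood clear of the controls. PERP, a desmosomal membrane protein, rose by 0.34 (edgeR adjusted p = 0.00033) and DSP, desmoplakin, which ties keratin to the plaque, by 0.28 (edgeR adjusted p = 0.0018). The plakophilins PKP2 and PKP3, plaque proteins, fell by 0.49 and 0.44 (edgeR adjusted p = 0.00039 and 0.00057). So plaque components moved in both directions, and these 5 calls held in every alternative tried.

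Hemidesmosomes tie keratin to the basement membrane. Of 9 genes tested 2 rose and 0 fell, with a median of 0.099, while 4 rose and 0 fell on the log2(TPM + 1) scale and 3 rose and 2 fell with length and GC trends removed. Both called on the count scale are chains of the same laminin receptor. ITGB4, whose long tail binds plectin, rose from 70.7 ± 9.71 to 109 ± 11.9 CPM (SD, n = 3), or 0.62 in log2 (edgeR adjusted p = 0.00069), and ITGA6 by 0.35 (edgeR adjusted p = 0.0011). Among plakins and filament linkers 3 rose and 3 fell of 10, with a median of 0.11, or -0.041 with length and GC trends removed, and on the log2(TPM + 1) scale 4 rose and 0 fell, with a median of 0.16. DSP is counted here too. TNS4, a focal adhesion protein, rose by 0.24 (edgeR adjusted p = 0.019), lost without control library 3 (0.20, adjusted p = 0.072) or co-treated library 1 or 2 (0.21 and 0.21, adjusted p = 0.055 and 0.073). NISCH fell by 0.24 and TCHP, trichoplein, which binds keratin, fell by 0.21 (edgeR adjusted p = 0.0040 and 0.0076), calls that were lost on TPM scales (-0.11 and -0.092, adjusted p = 0.13 and 0.15).

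Chaperones and turnover genes of keratin moved in both directions, with 3 higher and 2 lower of 11 and a median of 0.065. The paralogous heat shock genes HSPA1A and HSPA1B, whose products handle misfolded keratin, rose by 0.55 and 0.61 (edgeR adjusted p = 0.00038 and 0.00010), though near-identical copies can share reads. The small heat shock genes HSPB1 and HSPB8, whose products bind filaments and misfolded proteins, fell by 0.60 and 0.75 (edgeR adjusted p = 3.7e-05 and 0.00011). Among regulators of keratin genes 3 rose and 1 fell of 10, with a median of 0.18. AHR, the aryl hydrocarbon receptor, rose from 55.5 ± 6.23 to 97.3 ± 3.02 CPM (SD, n = 3), or 0.81 in log2 (edgeR adjusted p = 2.9e-05). KLF5 rose by 0.19 (edgeR adjusted p = 0.026), lost without control library 1 or 3 or co-treated library 2 or 3 (0.16, 0.19, 0.20 and 0.17, adjusted p = 0.057 to 0.10). TFAP2C fell by 0.22 (edgeR adjusted p = 0.015), lost without control library 2 (-0.18, adjusted p = 0.054), with library size alone (-0.16, adjusted p = 0.061) and on TPM scales.

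Of 20 cornified envelope genes 5 were tested, 0 rose and 1 fell, with a median of 0.34. That median is the value of FLG, which was not called, at 0.518 and 0.664 mean CPM. With a minimum count of 50, 2 genes were left, with a median of -0.34. TGM1, the transglutaminase of keratinocytes, fell by 0.76 at 1.04 ± 0.109 and 0.621 ± 0.099 CPM (SD, n = 3, edgeR adjusted p = 0.019). It lost the call without control library 2 or 3 or co-treated library 1 or 3 (-0.73, -0.71, -0.71 and -0.68, adjusted p = 0.056 to 0.071).

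The other filament systems were read alongside. Of 24 actin and actin-binding genes 1 rose and 12 fell, with a median of -0.16, and on the log2(TPM + 1) scale 3 rose and 4 fell. TAGLN, transgelin, fell by 0.96 (edgeR adjusted p = 0.0014), ACTN1, an actinin that bundles actin, fell from 336 ± 12.0 to 250 ± 10.2 CPM (SD, n = 3), or by 0.43 (edgeR adjusted p = 0.00011), and RDX, radixin, rose by 0.21 (edgeR adjusted p = 0.011). Of 16 tubulin genes 2 rose and 4 fell, with a median of -0.033, and on the log2(TPM + 1) scale 5 rose and 3 fell. TUBA1B and TUBA1C fell by 0.44 and 0.35 (edgeR adjusted p = 0.00013 and 0.00059), and TUBB3, the neuronal beta tubulin, rose by 0.35 (edgeR adjusted p = 0.0037). TUBB2A rose by 0.19 (edgeR adjusted p = 0.0497), lost in 6 alternatives, among them without control library 1 or 2 (0.17 and 0.16) and without co-treated library 2 or 3 (0.14 and 0.18), with adjusted p from 0.057 to 0.19.

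**Figure D5:**
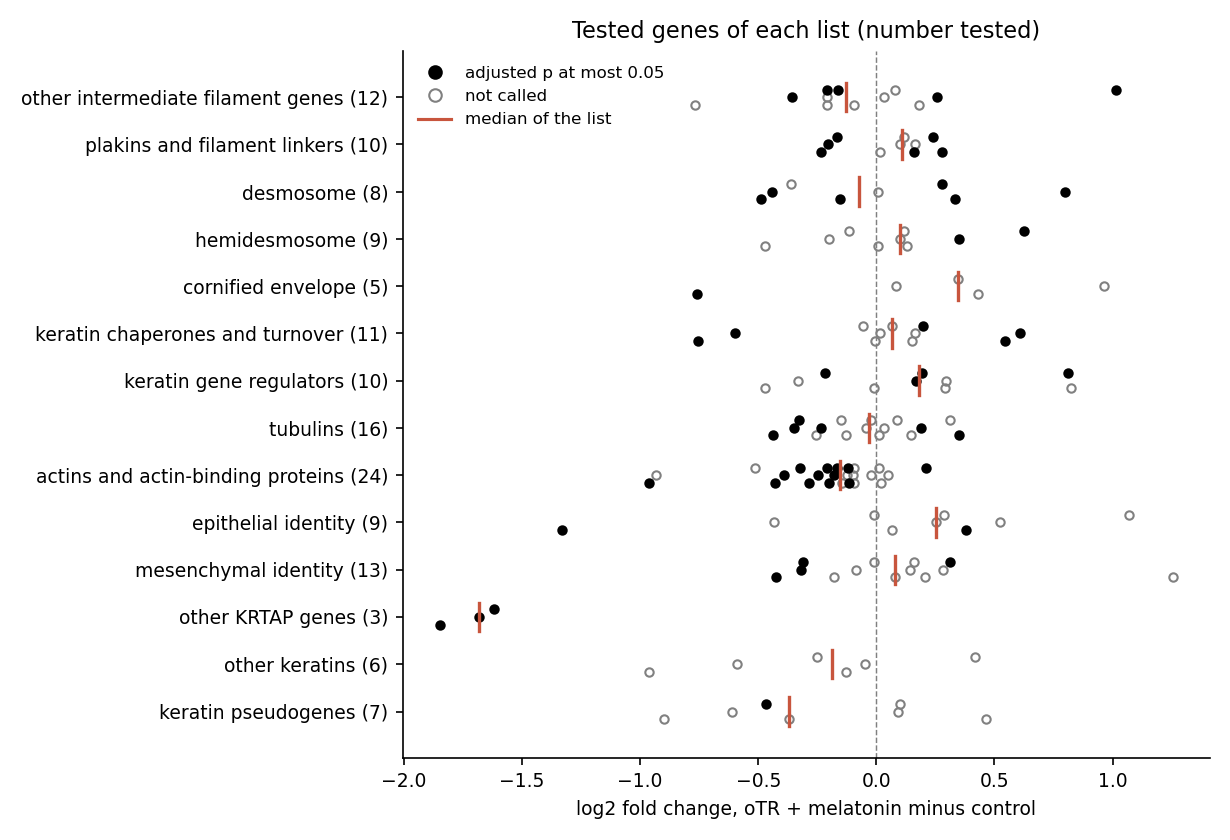
Fitted log2 fold change (x axis, co-treated minus control) of each tested gene in 14 lists (y axis, number tested in brackets). Filled points are genes at an adjusted p of at most 0.05, open points are not called, and vertical lines give list medians. Desmosome genes lie on both sides of 0, and most called actin genes lie below it on this count scale.

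Keratins and vimentin are often read as signs of epithelial and mesenchymal state, so both marker lists were examined. Of 15 epithelial genes 9 were tested, 1 rose and 1 fell, with a median of 0.25. CLDN4, a tight junction claudin, rose by 0.38 (edgeR adjusted p = 0.0061). EPCAM, at 0.313 and 0.128 mean CPM, fell by 1.33 (edgeR adjusted p = 0.041), lost in 8 alternatives, among them without control library 2 or 3 (-1.35 and -1.08) and without co-treated library 1 or 3 (-1.25 and -1.05), with adjusted p from 0.051 to 0.17 where it was lost, and DESeq2 gave it no adjusted p. CDH1, E-cadherin, was at or under 0.024 TPM in every library, and RAB25 was at 0. Summed epithelial TPM was 25.6 to 28.0 in control and 31.8 to 37.5 in co-treated libraries. Most of it, and of its difference, was CLDN4, at 16.5 to 17.1 TPM in control and 21.3 to 26.1 in co-treated libraries. Of 17 mesenchymal genes 13 were tested, 1 rose and 3 fell, with a median of 0.079, while 4 rose and 1 fell on the log2(TPM + 1) scale and 3 rose and 3 fell with library size alone. FN1, fibronectin, rose by 0.31 (edgeR adjusted p = 0.00082). COL1A1 fell by 0.32 (edgeR adjusted p = 0.0091), lost on TPM scales (-0.20, adjusted p = 0.12). Summed mesenchymal TPM was 838 to 873 against 893 to 953. Most of this difference was AXL, at 342 to 397 TPM in control and 405 to 474 in co-treated libraries. AXL was not called on the count scale (edgeR adjusted p = 0.17), where its CPM overlapped between the groups. Both marker sums are in TPM and are to be read against the upward shift of that scale.

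Markers checked the label of breast cancer cell against other cell types. PTPRC, the pan-leukocyte marker, was at 0 in every library, and CD68 carried nearly all of the immune sum of 30.6 to 38.1 TPM. Fibroblast markers summed to between 9.65 and 11.9 TPM, with DCN and THY1 at 0. Most of this was COL1A1, at 6.79 to 9.24 TPM, which is also in the mesenchymal list. Endothelial markers summed to 0.724 to 0.825 TPM in control and 0.920 to 1.15 in co-treated libraries. Basal markers summed to between 2.75 and 4.20 TPM, with KRT5 and KRT6A at 0. Luminal markers summed to 122 to 124 TPM in control and 146 to 172 in co-treated libraries, mostly XBP1, with PGR at 0. The part of these sums in the keratin values was not tested.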

How the data were processed

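Total RNA of 6 MDA-MB-231/RR libraries was analysed, grouped and numbered from the sample titles. Trimmomatic 0.38, HISAT2 2.1.0, Bowtie2, SAMtools 1.9, StringTie 2.1.3b and GRCh38 are named, without roles, per the submitters' processing notes. The authors deposited a gene and a transcript table with estimated counts, used as they stand, and FPKM and TPM. Deposited TPM served for levels and ratios, and deposited FPKM for checking shares. Column prefixes Con and Mo were taken to mean control and co-treated, which the labels do not spell out. Genes were filtered with filterByExpr (minimum count 10) and fitted in edgeR 4.0.16 (R 4.3.3) with relative log expression factors, adjusted over all 16557 genes. limma 3.58.1 and DESeq2 1.42.0 gave alternatives. CPM uses the same factors. Errors of fold changes are SE of the fit.

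The members and lists were chosen with earlier results of these data known. Named list genes are the 2 largest called rises and falls per list at 1 CPM or more, and a few further genes whose call an alternative ends are named by choice; some items are not reported here. Replicate numbers did not pair the libraries. Spans come from the deposited transcripts. GC content was found for 87.8% of tested genes. Figures used matplotlib 3.10.9.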

Additional observations from a re-analysis of the deposited data

How the results depend on the processing

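Alternatives were TMM factors, library size alone, the 20 most abundant genes left out, DESeq2, voom, 2 other count filters, TPM scales, each library left out, the replicate block, and removal of length or of length and GC trends, the last chosen after seeing the data. Genes called higher became 4516 on log2(TPM + 1) and 4490 on log2(TPM + 0.1), and lower 1339 and 1338, or 968 with no filter. List genes called higher became 38 and 37, or 32 with length and GC trends removed, and lower 18 and 18, or 15 with no filter. On the log2(TPM + 1), log2(TPM + 0.1) and unfiltered scales KRT7 was 0.50, 0.50 and 0.50, KRT18 -0.067, -0.067 and -0.067, KRT19 0.19, 0.19 and 0.19, KRT80 -0.21, -0.22 and -0.21, KRTAP2-3 -1.54, -1.63 and -1.54, and VIM 0.27, 0.27 and 0.27. With length and GC trends removed KRT18 was -0.054, KRT19 0.19, KRTAP2-3 -1.56 and VIM 0.17, and with the length trend alone KRT18 was -0.11 and KRTAP2-3 -1.62. VIM was 0.17 with library size alone and 0.16 with the 20 most abundant genes left out. The cause was not tested. Leaving out each library gave 4223 to 4820 called genes. With the replicate block, 3177 genes were higher and 3190 lower, against 2743 and 2835, and 66 list genes were called, although same-numbered libraries did not deviate together (r = 0.069, 0.00045 and -0.036). Between 181 and 928 counts per library lie behind KRTAP2-3, and at most 24 behind KRTAP2-1 and KRTAP2-2 in each co-treated library.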

Other observations

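In VIM, the libraries numbered 3 had the highest share on the reference transcript in both groups and those numbered 1 the lowest. The reference transcript held 93.2% and 94.0% in the libraries numbered 3, 69.1% and 61.5% in those numbered 2, and 49.4% and 21.2% in those numbered 1. METTL7AP1, beside KRT7, was at 0 counts in both libraries numbered 1 and at 65 to 90 in the other 4. Over all genes same-numbered libraries did not deviate together. The KRT8 variant that starts at base 52926469 held 1.15%, 4.13% and 7.05% of KRT8 counts in control libraries and 4.14%, 4.57% and 4.99% in co-treated ones.

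KRTAP2-3 was read at 29.9 TPM in controls, while 81 of 92 keratin-associated protein genes outside the KRTAP2 copies had no counts, and the hair keratin KRT81, the only other hair-type gene among the 9, had higher CPM in all 3 co-treated libraries.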
